A study of Mus musculus with 25 samples.

Results

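Lungs of C57BL/6 mice whose food had been cut by 2/3 for 96 h (calorie restriction, CR) were compared with lungs of fed control mice taken at 0 h, the same clock hour by the labelled times. The comparison used every array titled for 96 h of CR (2 arrays, 1a and 1b) and every array titled for the fed control at 0 h (4 arrays: number 1, a and b, and number 2, a and b), which is 6 of the 24 Affymetrix MG-U74Av2 arrays with values. The series held 25 arrays in all, and the further array, of another platform, was not used. Of 12422 probe sets that were not controls, 7440 were bright enough to be tested, for 5706 named genes. The other arrays were CR at 2, 4, 12, 24, 48 and 72 h and fed controls at 2, 4 and 12 h, 2 arrays each. All mice were of that inbred strain, and the labels gave no genotype or drug; age, sex, the number of animals and whether lungs were pooled are not given in the sources used here. The description of the fed mice called them always fed but also carried the wording of the 2/3 cut, so that their feeding is not certain. Nothing states whether a and b were separate animals or repeat arrays of 1 RNA, so the p-values may measure technical spread only.

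When food is short, the adrenal gland releases glucocorticoid hormones, and the body turns from burning glucose to burning fat. Glucocorticoid binds its receptor in the cytoplasm; the receptor leaves its chaperones, enters the nucleus and binds palindromic DNA elements near its target genes, which it switches on, while it holds back many inflammatory genes. In the lung, which holds a very high density of the receptor, the hormone drives surfactant production before birth, thins the alveolar walls and damps immune cells. In mice, prolonged calorie restriction is known to enlarge the airspaces of the lung, and refeeding reverses this.

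The lung markers were in place. Surfactant protein C (Sftpc), made by alveolar type II cells, gave scaled signals of 38344 and 33839 in the CR 96 h arrays, against 97698, 88378, 42569 and 51195 in the fed 0 h arrays (here and below in the order 1a, 1b, 2a, 2b). Ager, the receptor that marks type I cells, gave 27920.3 and 25127 at CR 96 h and 25062, 26779, 27158 and 31481 in fed lungs, and the club cell secretory protein Scgb1a1 gave 37436 and 38651 and 75170.00, 66475, 41964 and 47584. Ager overlapped between the groups; Sftpc and Scgb1a1 were lower on both CR arrays but missed the threshold (adjusted p = 0.0577 and 0.0981, limma with Benjamini-Hochberg adjustment, as everywhere below).

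The fed arrays themselves fell into 2 kinds. The highest signal on an array was 41262 and 41374 at CR 96 h, 93445 and 86942 for fed number 1, and 53258 and 54315 for fed number 2, a split at 60000 that runs through the whole series. The correlation of log2 signal across probe sets, a description of the arrays, was 0.95 between the CR arrays, 0.827 to 0.891 between CR and fed number 1, 0.903 to 0.94 between CR and fed number 2, and 0.854 to 0.871 between the fed numbers. Fed number 1 and fed number 2 differed at 2969 of the 7440 probe sets tested (adjusted p under 0.05). The signal range of fed number 2 was that of the CR arrays. Genes named below that missed the threshold against number 2 alone, or against the fed arrays of 2 h and 4 h, are therefore given with their group. Genes that passed against number 2 but not against all 4 fed arrays are named for some lists only. The ratio of 3' to 5' signal for Gapdh, a measure of RNA integrity, was 1.29 and 1.24 at CR 96 h, against 1.76 to 2.02 in fed 0 h lungs. In the fed arrays of 2, 4 and 12 h it was 1.01 to 1.66. The same ratio for actin was 1.79 and 1.80 at CR 96 h, 1.87 to 2.31 in fed 0 h lungs and 1.47 to 2.37 in the other fed arrays. The part of RNA integrity in the results was not tested.

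After 4 days of CR, 25 of 32 genes that glucocorticoids are known to switch on were higher. Lower were 6 of 25 genes of interferon-stimulated defence, 5 of 10 of MHC class II antigen presentation and 6 of 23 of heart-type and skeletal muscle. These gene lists were written with earlier results of these data known, so their counts are descriptions. The largest rises were Fkbp5, 14.7-fold, Zbtb16, 11.01-fold, and Map3k6, 10.5-fold. The largest falls were those of Csrp3, a muscle protein, at least 5.38-fold lower, and Plac8, an immune cell protein, 4.99-fold lower. At an adjusted p under 0.05, which is what rose and fell mean here, 292 probe sets rose (3.92% of those tested) and 191 fell (2.57%), for 249 and 163 genes. Counts in the gene lists stand beside these shares, and few calls in a long list are near them and are no result about that list. For the other choices of control the shares are those given in the next paragraph. Changes of at least 2-fold were seen for 148 of the rises and 90 of the falls, and of at least 4-fold for 27 and 5. The median log2 change over all probe sets was 0.01; every array had been scaled to the same median, so this value says nothing of a general shift. Folds are ratios of geometric means after signals under the floor of 80.4 were raised to it, and a fold given as at least so much has at least 50% of the arrays of 1 group at the floor.

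Among the called probe sets, both CR arrays were beyond all 4 fed arrays for 291 of the 292 rises and 183 of the 191 falls. Over all 7440 probe sets this was so for 13.4% above and 10.3% below. The calls were made from these same arrays, so this separation is largely built in and gives no further support. Against fed number 2 alone, 410 probe sets rose (5.51%) and 213 fell (2.86%), and these included 196 of the 292 rises and 87 of the 191 falls. Against fed number 1 alone, 1546 rose (20.8%) and 1350 fell (18.1%). Against the fed 2 h and 4 h arrays, which are of other clock hours, 142 rose (1.91%) and 84 fell (1.13%). The counts leaned on the array CR 1b: without it 68 probe sets rose and 15 fell. Without fed 2a they were 466 and 473, and without fed 2b 579 and 438, while without fed 1a 103 fell and without fed 1b 99 fell. If a and b are taken as repeat arrays of 1 sample, through a random block with a consensus correlation of 0.56, 41 rose and 6 fell. Among these were Fkbp5, Ddit4, Pdk4, Lpl, Angptl4, Cdkn1a, Zbtb16, Per1, Mt1, Mt2, Lyve1, Lox and Fos for the rises and Col3a1, Myl4, Myl7, Tnni3, Ccr2 and Gbp2 for the falls. Only fed 0 h had more than 1 number, so the spread between samples in this fit came from fed numbers 1 and 2 alone. CR 96 h then counts as 1 sample. Averaging a and b left 1 residual degree of freedom and fewer calls, given below under processing.

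**Figure D1:**
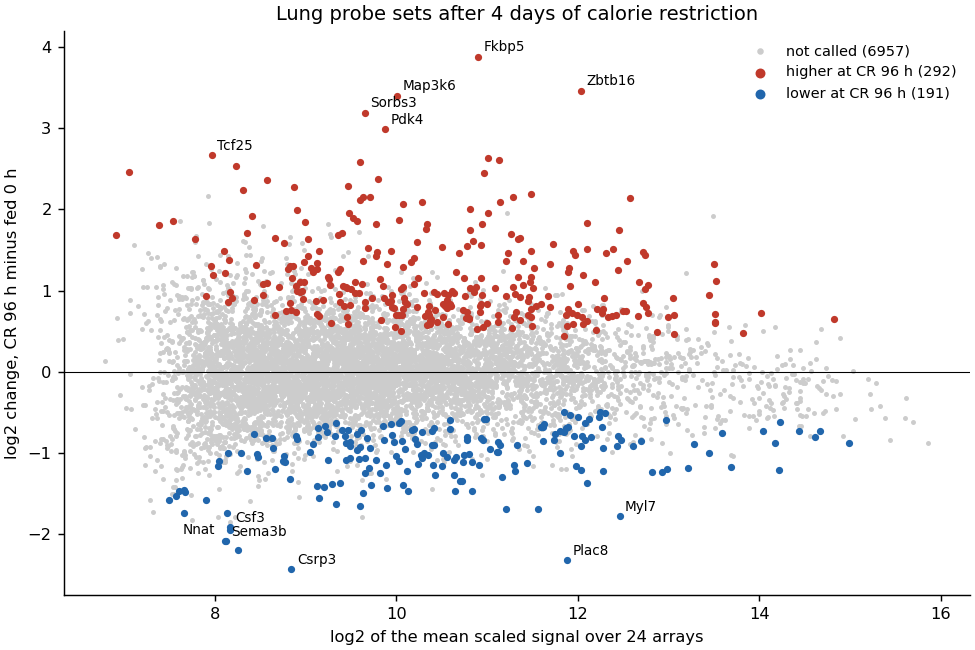
Log2 change (CR 96 h minus fed 0 h, vertical axis) against the log2 of the mean scaled signal over 24 arrays (horizontal axis) for the 7440 probe sets tested, with the 292 rises in red, the 191 falls in blue and the rest in grey. Fkbp5, Zbtb16 and Map3k6 stand highest, and Csrp3 and Plac8 lowest.

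Of 32 glucocorticoid response genes tested, 25 rose and 0 fell, against 232 rises and 155 falls among all 5706 genes. The list was written with earlier results of these data known, so these values describe it and do not test it. The list's median log2 change was 1.45, that of all genes 0.02. The signal summed over the list was 141942 and 154071 at CR 96 h and 56158 to 62607 in the 4 fed 0 h arrays, with 56678 to 69206 in the other fed arrays. Against fed number 2 alone 23 of 32 rose (median 1.55), and against the fed 2 h and 4 h arrays 23 of 32 rose (median 1.45). Leaving out any of the 6 arrays kept at least 20 of 32 rising, the fewest without CR 1b.

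Fkbp5 is a co-chaperone that lowers the receptor's affinity for its hormone and is itself a receptor target. Its signals were 5132 and 4348 in the CR 96 h arrays, against 279, 221, 358 and 487 in the fed 0 h arrays. The CR arrays stood far above all fed arrays, 14.7-fold higher (95% confidence interval 10.4 to 20.7, adjusted p = 1.11e-08). Fed number 2 was higher than number 1 in this gene, and the log2 change was 3.50 against number 2. The fed mean also differed by hour: the fed 2 h, 4 h and 12 h means were 979, 853 and 1529.9, and against the fed 2 h and 4 h arrays the log2 change was 2.38 (adjusted p = 4.84e-06).

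Ddit4, which inhibits the growth kinase complex mTORC1, gave 6229 and 5754 at CR 96 h, against 1224, 909, 845 and 932 in fed lungs. Here the fed arrays of both numbers lay together and the CR arrays were 6.19-fold higher (4.87 to 7.87, adjusted p = 1.11e-08). Cdkn1a, the cyclin-dependent kinase inhibitor p21, gave 4859.7 and 5277 at CR 96 h and 967, 791, 840.4 and 1174 in fed lungs, 5.43-fold higher with no overlap (3.99 to 7.39, adjusted p = 5.85e-07), and a further Cdkn1a probe set rose too, by 1.87 on the log2 scale. Errfi1, an inhibitor of the epidermal growth factor receptor, gave 10475 and 11691 at CR 96 h and 3028, 3279, 3293 and 3571 in fed lungs on its brighter probe set, 3.37-fold higher. Its dimmer probe set rose 6.11-fold, with the fed arrays spread over 441, 1489, 881 and 909. Dusp1, a phosphatase that switches off MAP kinases, rose 2.09-fold, and Nfkbia, the inhibitor that holds NF-kB in the cytoplasm, 2.75-fold, with a further probe set that rose too (log2 change 1.07).

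Zbtb16, a zinc finger transcription factor, gave 5538 and 9152 at CR 96 h, against 250.4, 443, 1107 and 1422 in fed lungs. The fed numbers did not overlap each other, so the log2 change was 3.46 against all 4 fed arrays and 2.50 against number 2 (adjusted p = 7.06e-05 and 1.94e-06). The stress kinase Map3k6 gave 1526 and 2374 at CR 96 h and 106, 263, 112 and 342 in fed lungs. Here a and b of each fed number differed by more than the numbers did, yet both CR arrays lay above all of them (10.5-fold, 6.24 to 17.8). Tat, the liver enzyme that starts tyrosine breakdown, was dim: 409 and 595 at CR 96 h and 69.6, 33.2, 125 and 78.8 in fed lungs, of which 3 were under the floor of 80.4, so it was at least 5.49-fold higher (adjusted p = 0.00202).

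The metallothioneins Mt1 and Mt2, which bind zinc, rose 2.80-fold and 2.39-fold. Among transcription factors of the list, Cebpd rose 2.72-fold, Cebpb 2.35-fold and Klf9 2.09-fold on its brighter probe set and 4.44-fold on its dimmer one. The brighter Klf9 probe set missed the threshold against fed number 2 (adjusted p = 0.169), while the dimmer one passed there (log2 change 1.80). Birc3, an inhibitor of apoptosis, missed it against number 2 (adjusted p = 0.085). Against the fed 2 h and 4 h arrays the brighter Klf9 probe set, Lcn2 and Birc3 missed it (adjusted p = 0.0589, 0.102 and 0.459). Slc10a6, a carrier of sulphated steroids, gave 3485 and 4021 at CR 96 h and 1092, 945, 1035 and 1171 in fed lungs, 3.54-fold higher (2.89 to 4.34). Sgk1, a kinase that raises sodium uptake, gave 7043 and 7495 at CR 96 h and 3249, 3702, 2055 and 3223 in fed lungs, 2.43-fold higher (adjusted p = 0.000724). The 7 members that did not pass were Il1r2, Anxa1, Cdkn1c, Tgm2, Glul, Hif3a and Rgs2, with log2 changes between -0.32 (Rgs2) and 1.29 (Il1r2). Of 7 genes for the receptor's chaperones and for hormone handling, only Fkbp4, the co-chaperone that takes the place of Fkbp5 on the hormone-bound receptor, fell: 4318 and 2782 at CR 96 h and 5706, 5384, 5662 and 5528 in fed lungs, 1.61-fold lower (adjusted p = 0.0137). Its dimmer probe set did not pass (log2 change -0.20), and against the fed 2 h and 4 h arrays the log2 change of the brighter one was -0.34 (adjusted p = 0.34). Hsd11b1, the enzyme that regenerates active hormone from its inert form, gave 8064 and 6575 at CR 96 h, against 8955, 7993, 1759.7 and 2606 in fed lungs, and so lay with fed number 1 and above number 2; it rose against number 2 (log2 change 1.77, adjusted p = 5.01e-06) but did not pass against all 4 (adjusted p = 0.286).

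**Figure D2:**
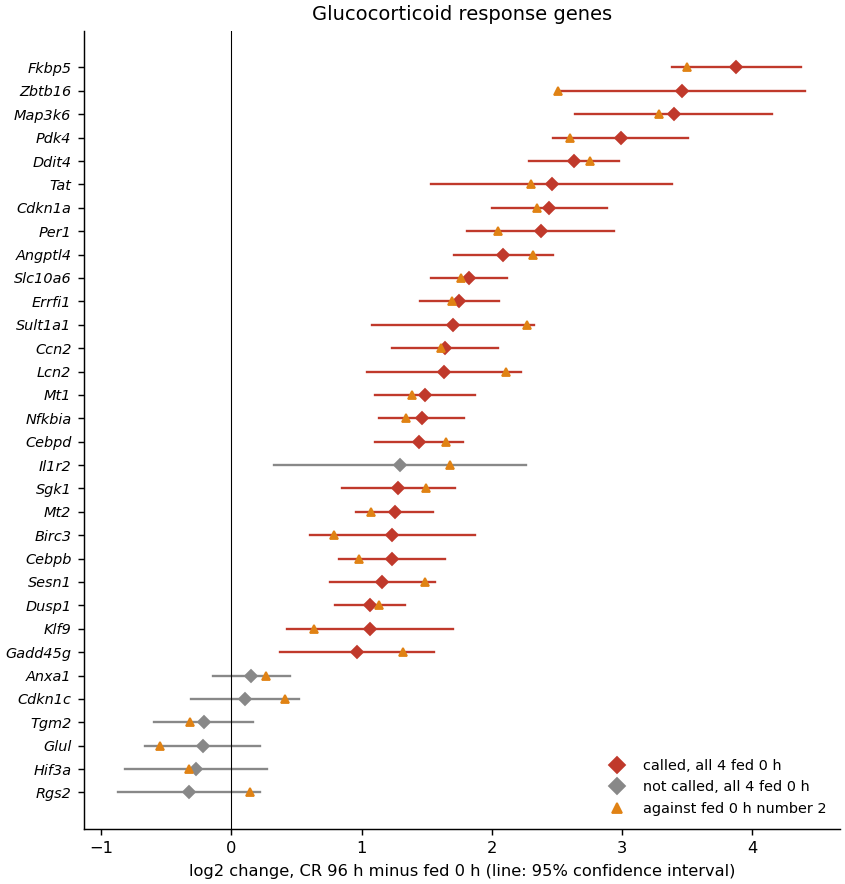
Log2 change, CR 96 h minus fed 0 h, for the 32 glucocorticoid response genes tested: diamonds with 95% confidence intervals are against all 4 fed arrays (red, called; grey, not called), and orange triangles are against fed number 2. The 25 called genes all lie above 0 against both.

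Promoter sequence was shown for the target whose window holds a whole receptor element. RefSeq windows (GRCm38.p6, from 250 bases before to 50 after the start) were found for 26 of the 32 genes and searched on both strands. The palindrome, AGAACA, then 3 bases of any kind, then TGTTCT, occurred in 1 of 26, Sgk1, against 3 of 27025 genes of the table (0.0111%). The shorter TGTTCT, which is part of it, was in 3 of 26 (11.5%), against 15% of the tested genes with a window. The E-box CACGTG, which the clock and Myc families bind, was in 6 of 26 (23.1%) against 12.2%, among them Per1 and Fkbp5, and the cAMP response element TGACGTCA was in 2 of 26 (7.69%), Dusp1 and Errfi1, against 3.36%. In the sequences below, read 5′ to 3′ on the gene's strand, the capitals mark the receptor element for Sgk1 (chr10:21993671-21993745, plus strand), the E-box for Per1 (chr11:69098753-69098818, plus strand) and the cAMP response element for Errfi1 (chr4:150854989-150855056, plus strand).
Sgk1: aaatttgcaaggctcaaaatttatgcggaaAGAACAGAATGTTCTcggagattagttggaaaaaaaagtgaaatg
Per1: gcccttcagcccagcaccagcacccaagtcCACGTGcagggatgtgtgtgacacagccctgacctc
Errfi1: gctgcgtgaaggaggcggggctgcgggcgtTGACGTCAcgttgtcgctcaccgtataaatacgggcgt
The receptor element of Sgk1 begins 189 bases before its start; a match is a description of the letters and says nothing of binding in these lungs.

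Of 20 genes of fatty acid oxidation and of the fat-sensing receptors called PPARs, 4 rose and 0 fell, and the list's median log2 change was 0.21. Pdk4, the kinase that shuts the pyruvate dehydrogenase complex and so spares glucose, gave 2188 and 2227 at CR 96 h, against 178, 252, 352 and 379 in fed lungs. The CR arrays were nearly equal and 7.93-fold above the fed ones (5.55 to 11.3, adjusted p = 3.20e-07). Lpl, lipoprotein lipase, which frees fatty acids from blood fats, gave 4850.4 and 5543 at CR 96 h and 969.9, 1171, 1188 and 1369 in fed lungs, 4.45-fold higher (3.51 to 5.63), and its dimmer probe set rose 4.84-fold. Angptl4, a secreted inhibitor of that same lipase, rose 4.25-fold (3.27 to 5.52), and Acot1, which cleaves acyl-CoA, 1.95-fold (1.52 to 2.50). Of 2 further Angptl4 probe sets 1 rose (log2 change 1.14) and 1, which was dim, did not pass (-0.43).

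Each of these 4 genes also rose against fed number 2 and against the fed 2 h and 4 h arrays. The mitochondrial importer Cpt1a, which sets the pace of fat oxidation, gave 5233 and 5919.9 at CR 96 h, against 2335, 1913, 4527 and 4804 in fed lungs, where the numbers lay apart. It did not pass (log2 change 0.83, adjusted p = 0.0733; 0.26 against number 2). Acadm, a dehydrogenase of the oxidation spiral, gave 3457 and 2803 and 3001, 2901, 2974 and 2766 and overlapped. Of 16 lipogenesis and fat cell genes 0 rose and 2 fell: Thrsp, a regulator of fat synthesis, was 2.93-fold lower and Car3, a carbonic anhydrase of fat cells and muscle, 2.09-fold lower. Thrsp missed the threshold against number 2 (adjusted p = 0.115), and both missed it against the fed 2 h and 4 h arrays (adjusted p = 0.405 and 0.463). None of 13 cholesterol synthesis genes passed, with a smallest adjusted p of 0.164 (Ebp).

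FOXO transcription factors are active when insulin is low and switch on genes of atrophy and autophagy. Of 25 genes of that list 6 rose and 0 fell, with a median log2 change of 0.35: Ddit4, Txnip, Sesn1, Sqstm1, Cited2 and Foxo3. Txnip, which blocks glucose uptake, gave 9194 and 8583 at CR 96 h and 5272, 5095, 4723 and 5345 in fed lungs, 1.74-fold higher without overlap, while a dim further probe set did not pass (log2 change -0.37). Sesn1, a stress sensor that restrains mTORC1, rose 2.24-fold, and Sqstm1, which carries cargo into autophagosomes, 1.61-fold. Foxo3 itself gave 3318 and 4218 at CR 96 h, against 1022, 885, 2164 and 2316 in fed lungs, where number 2 stood above number 1; the log2 change was 1.36 against all 4 and 0.74 against number 2 (adjusted p = 0.00973 and 0.0119). Txnip, Cited2 and Foxo3 missed the threshold against the fed 2 h and 4 h arrays (adjusted p = 0.162, 0.729 and 0.167). Against number 2 11 of the 25 rose and 1 fell. Of 13 insulin and IGF signalling genes, 1 passed against all 4: Igfbp6, a binding protein for insulin-like growth factor, rose 1.52-fold. Igfbp3 rose and Igfbp2 fell against number 2 (log2 change 1.07 and -0.54, adjusted p = 0.0027 and 0.0143).

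Of 27 apoptosis genes 4 rose and 1 fell, where 3.92% of all probe sets tested rose and 2.57% fell. Bcl2l1, whose main product Bcl-xL protects cells, gave 6197 and 7943 at CR 96 h and 3254, 3795, 2789.9 and 3261 in fed lungs, 2.16-fold higher (adjusted p = 0.000484). Mcl1 and Birc3, which also protect, rose 1.43-fold and 2.35-fold, and Fas, a death receptor, rose 2.40-fold. The death ligand Tnfsf10 was at least 2.98-fold lower, with 75.6 and 102 at CR 96 h and 394, 432, 151 and 205 in fed lungs. It missed the threshold against fed number 2 (adjusted p = 0.149). Against the fed 2 h and 4 h arrays Bcl2l1 alone of these 5 passed, and Fas, Mcl1, Birc3 and Tnfsf10 had adjusted p-values of 0.0724, 0.418, 0.459 and 0.199. In the cell cycle list 1 of 23 genes fell, Stmn1, a microtubule destabiliser (1.79-fold lower), and 0 rose. These counts were near the shares over all probe sets. The cell cycle list's median log2 change was -0.39. Stmn1 missed the threshold against number 2 and against the fed 2 h and 4 h arrays (adjusted p = 0.0556 and 0.0639).

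Of 25 immediate early genes, which cells switch on within minutes of a stimulus, 9 rose and 0 fell, with a median log2 change of 0.31. Fos, a partner in the AP-1 dimer, gave 3222 and 3078 at CR 96 h, against 413, 544, 1468 and 956 in fed lungs. The CR arrays were close to each other and above all fed arrays, 4.20-fold (2.64 to 6.69, adjusted p = 0.000489), and Fos also passed against number 2 (log2 change 1.41). The others that rose were Ccn2 (3.12-fold), Klf2 (3.03-fold), Nr4a1 (2.54-fold), Klf4 (2.29-fold), Zfp36 (2.22-fold), Dusp1, Gadd45g (1.95-fold) and Ier2 (1.45-fold). All 9 also rose against number 2, and Klf4, Zfp36 and Ier2 missed the threshold against the fed 2 h and 4 h arrays (adjusted p = 0.256, 0.116 and 0.0766). Dusp1, Ccn2 and Gadd45g belong to the glucocorticoid list too. Without CR 1b, 3 of the 25 rose.

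Of 17 clock genes 2 rose and 0 fell. Per1, a clock repressor that glucocorticoid also induces, gave 1206 and 2371 at CR 96 h, against 220.3, 306, 416 and 404 in fed lungs, 5.18-fold higher (3.50 to 7.66). The CR arrays differed widely in it but lay above all fed arrays. Cry1, a further repressor of the clock, gave 2251 and 1865 at CR 96 h and 1177, 1155, 879 and 955 in fed lungs, 1.98-fold higher. Arntl, the clock activator Bmal1, gave 779 and 1216 and 567, 544, 668 and 662, and did not pass (log2 change 0.68, adjusted p = 0.0577). Dbp, a clock output gene, was dim in all 6 arrays, at 29.7 and 82.7 in CR and 109, 168, 199 and 179 in fed lungs, and did not pass (adjusted p = 0.0836).

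Of 25 interferon response genes tested 6 fell and 0 rose, and 15 had both CR arrays below all 4 fed arrays, which 588 of all 5706 genes had. The list's median log2 change was -0.60 against all 4 fed arrays and -0.40 against number 2, where 1 rose and 6 fell. Gbp2, a GTPase that attacks the vacuoles of intracellular microbes, gave 780.1 and 849 at CR 96 h, against 1642, 1569.8, 1615 and 1904 in fed lungs. Both fed numbers lay at the same level and the CR arrays were 2.06-fold lower (1.70 to 2.50, adjusted p = 5.34e-05). Isg15, a ubiquitin-like modifier, gave 485 and 272 at CR 96 h and 1190.4, 1344, 832 and 821 in fed lungs, 2.81-fold lower (1.96 to 4.04, adjusted p = 0.000996).

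The GTPases Iigp1 and Gbp3 were 2.41-fold and 2.06-fold lower, and both also fell against number 2. Psmb8, a catalytic subunit of the immunoproteasome, and Irf8, a transcription factor of myeloid cells, were 2.17-fold and 1.67-fold lower, but neither passed against number 2 (adjusted p = 0.109 and 0.149), nor did Psmb8 against the fed 2 h and 4 h arrays (adjusted p = 0.101). A dimmer Iigp1 probe set did not pass (log2 change -0.70). Without CR 1b 2 of the 25 fell, and without fed 2a or 2b 10 fell.

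The promoters of this list are shown for the letters they share. The interferon stimulated response element, searched as GAAA, then 2 bases of any kind, then GAAA, on both strands of the RefSeq windows, was found in 9 of 20 genes with a window (45.0%), against 3.6% of the tested genes. They were Isg15, Gbp2, Gbp3, Ifit1, Ifit3, Igtp, Irgm1, Irgm2 and Rsad2, of which the first 3 fell. In the stretches below the capitals mark the element, and overlapping matches run together. That of Isg15 is chr4:156200845-156200926 (minus strand), that of Gbp2 chr3:142620574-142620643 (plus strand) and that of Gbp3 chr3:142559969-142560044 (plus strand), where the element stands on the other strand and shows as TTTC, 2 bases and TTTC.
Isg15: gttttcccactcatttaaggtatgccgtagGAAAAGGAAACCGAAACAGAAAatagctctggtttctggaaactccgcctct
Gbp2: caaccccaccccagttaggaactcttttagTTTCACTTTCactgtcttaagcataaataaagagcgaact
Gbp3: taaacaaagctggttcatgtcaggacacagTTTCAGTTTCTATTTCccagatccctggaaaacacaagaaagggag

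MHC class II molecules present antigen on B cells, dendritic cells and macrophages. Of 10 genes of this system 5 fell and 0 rose, with a median log2 change of -0.89: H2-Eb1, H2-Aa, H2-Ab1, H2-DMb1 and Ciita, their master activator. Ctss of this list went the other way against number 2 (log2 change 1.04, adjusted p = 0.000732) and did not pass against all 4 (adjusted p = 0.453). H2-Eb1 gave 4932 and 2396 at CR 96 h, against 9984, 9663, 5515 and 8005 in fed lungs, 2.35-fold lower (adjusted p = 0.00315). Number 2 lay below number 1, and against number 2 the log2 change was -0.95 (adjusted p = 0.00941). H2-Aa and Ciita also fell against number 2, while H2-Ab1 and H2-DMb1 did not pass there (adjusted p = 0.101 and 0.139); Ciita and H2-Ab1 missed it against the fed 2 h and 4 h arrays (adjusted p = 0.0635 and 0.0502), and without CR 1b 0 of 10 fell.

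Some markers of lymphocytes were lower against all 4 fed arrays. In the whole tissue, fewer cells of a type and less RNA per cell cannot be told apart. Of 14 B cell genes 4 fell (Blk, Cd37, Ltb and Ms4a1) and 0 rose. Ms4a1, the surface protein CD20, gave 883 and 599 at CR 96 h and 3031, 4602, 829 and 1408 in fed lungs, so that the CR arrays overlapped fed number 2. Against number 2 alone 0 of 14 passed, and the list's median log2 change was -0.59. The signal summed over the list was 6796 and 9124 at CR 96 h, against 18602 to 18605 for fed number 1, 7412 to 11802 for number 2 and 13057 to 17004 in the other fed arrays.

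Of 4 natural killer and cytotoxic genes 2 fell, the protease Gzmb (2.24-fold lower) and the receptor chain Klrd1 (2.73-fold lower); 0 passed against number 2. Neither passed against the fed 2 h and 4 h arrays, nor did Ltb and Ms4a1 of the B cell list (adjusted p = 0.0671, 0.0912, 0.0905 and 0.0714). Of 9 T cell genes 0 passed against all 4, with the smallest adjusted p for Lat (0.0554). Lat fell against number 2 (log2 change -0.88, adjusted p = 0.0373). Without CR 1b 0 of the B cell and 0 of the cytotoxic genes fell. Of 22 macrophage and monocyte genes 1 fell, Ccr2, the receptor that draws monocytes into tissue. It gave 275 and 209 at CR 96 h, against 962, 977, 559 and 577 in fed lungs, 3.10-fold lower (2.21 to 4.33), and it fell against each fed number. Against number 2 alone 9 of the 22 rose, among them Cd68, a lysosomal protein, with 1239 and 1369 at CR 96 h and 972, 1086, 518 and 478 in fed lungs; against all 4 it did not pass (adjusted p = 0.0588). The summed signal of the list was 80202 and 86914 at CR 96 h, 84907 to 90714 for number 1 and 43375 to 55326 for number 2. Of 8 neutrophil genes 1 rose, Lcn2, 3.10-fold, which is also a glucocorticoid target, and of 19 chemokine and cytokine genes Csf3 and Ltb fell. A further Lcn2 probe set did not pass (log2 change -0.02), and Csf3 missed the threshold against the fed 2 h and 4 h arrays (adjusted p = 0.188). S100a8 and S100a9 of the neutrophil list rose against number 2 (log2 change 2.47 and 2.32, adjusted p = 6.68e-05 and 0.00246). Neither passed against all 4 (adjusted p = 0.624 and 0.587). S100a8 gave 1421 and 949 at CR 96 h and 2488, 2432, 128 and 342 in fed lungs, so it lay below number 1 and above number 2. Among 4 mast cell genes Hdc, which makes histamine, was 1.49-fold lower, but against the fed 2 h and 4 h arrays the log2 change was -0.07 (adjusted p = 0.907), and against the fed arrays of 2, 4 and 12 h it was 0.24, the other direction and not called.

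**Figure D3:**
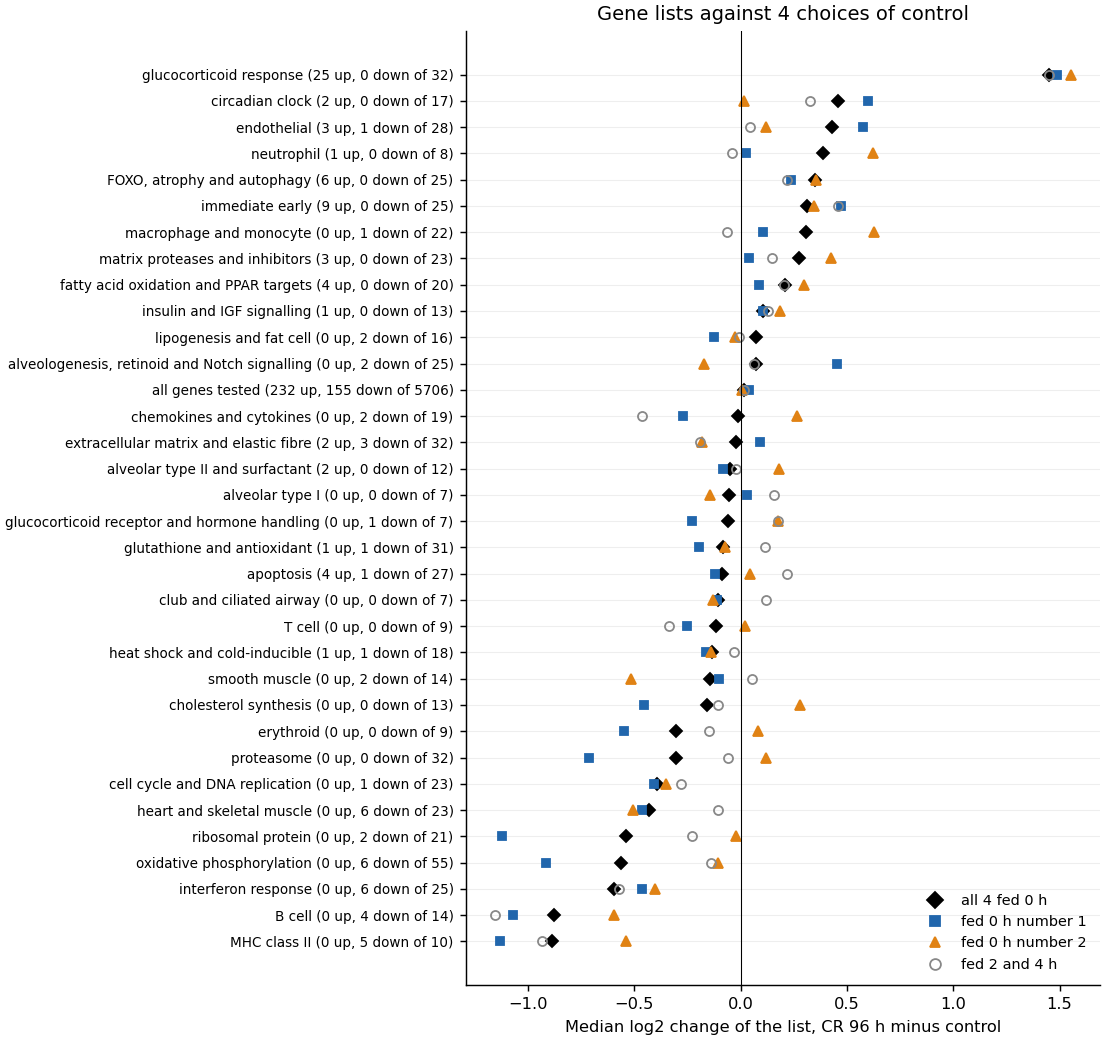
Median log2 change of each gene list with at least 7 genes tested (CR 96 h minus control, horizontal axis) against all 4 fed 0 h arrays (black), fed number 1 (blue), fed number 2 (orange) and the fed 2 h and 4 h arrays (open grey); counts of rises and falls are those against all 4. The glucocorticoid list lies between 1.45 and 1.55 for every control, while the ribosomal list lies at -1.12 against number 1 and at -0.02 against number 2.

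Mouse lung samples carry heart-type muscle, which sheathes the pulmonary veins. Of 23 heart and skeletal muscle genes 6 fell and 0 rose against all 4 fed arrays, and 6 fell against number 2, of which 5 are shared, with a median log2 change of -0.43 and -0.51. The atrial light chain Myl7 gave 3571 and 2126 at CR 96 h, against 10733, 10488, 9463 and 7411 in fed lungs, 3.42-fold lower (2.57 to 4.55, adjusted p = 1.22e-05). Its partner Myl4 gave 1770.2 and 1155 at CR 96 h and 4799.7, 5549.8, 4147 and 4048 in fed lungs, 3.22-fold lower (2.50 to 4.14). Neither overlapped. The cardiac troponin Tnni3 was 2.13-fold lower, the cardiac actin Actc1 1.80-fold and Tnnc1 2.33-fold. Tnnc1 missed the threshold against number 2 (adjusted p = 0.0793). A further Myl4 probe set fell too (log2 change -0.63), and a further Actc1 probe set did not pass (-0.77). Csrp3, a protein of the sarcomere, gave 319 and 38.7 at CR 96 h and 1137, 1020.1, 792 and 598 in fed lungs, at least 5.38-fold lower.

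The fed 0 h lungs were themselves high in these genes. The signal summed over the list was 23803 and 27211 at CR 96 h, 42013 to 43435 for fed number 1, 39432 to 48866 for number 2, and 26794 to 33914 in the fed arrays of 2, 4 and 12 h. Against the fed 2 h and 4 h arrays 3 of 23 fell (median log2 change -0.11), with a log2 change of -0.98 for Myl7 and -1.003 for Myl4 (adjusted p = 0.00608 and 0.00163). Tnni3, Actc1 and Tnnc1 missed the threshold there (adjusted p = 0.119, 0.285 and 0.214). How much vein or heart each sample held was not tested. Of 14 smooth muscle genes Tagln and Cnn1, which bind actin, fell 2.00-fold and 1.85-fold and 0 rose. Neither passed against the fed 2 h and 4 h arrays: the log2 change of Tagln was -0.38 and that of Cnn1 0.01 (adjusted p = 0.378 and 0.99). Against number 2 6 of the 14 fell and 1 rose.

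Of 32 genes of the extracellular matrix and elastic fibre, 2 rose and 3 fell, and the median log2 change was -0.02. Over all probe sets tested 3.92% rose and 2.57% fell. Col3a1, the fibrillar collagen of stretchable tissue, gave 648 and 746 at CR 96 h, against 1793, 1838, 2064 and 2022 in fed lungs. All fed arrays lay close together and the CR arrays were 2.77-fold lower (2.29 to 3.35, adjusted p = 7.90e-07). Of 2 dimmer Col3a1 probe sets 1 also fell (log2 change -1.19) and 1 did not pass (-0.25). Mfap5 and Lum, proteins of microfibrils and of collagen fibrils, were 2.23-fold and 1.76-fold lower. Lum missed the threshold against number 2 (adjusted p = 0.128), and a dimmer Mfap5 probe set did not pass (log2 change -0.83). Against number 2 8 of the 32 fell, among them Col1a1 and Col1a2, chains of the main fibrillar collagen (log2 change -1.48 and -1.11), which lay level with number 1 (0.08 and 0.02).

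Lox, the enzyme that cross-links collagen and elastin, went the other way, with 1119.7 and 1891 at CR 96 h and 295, 345, 260.1 and 432 in fed lungs, 4.45-fold higher (3.11 to 6.37, adjusted p = 1.77e-05). A dim further Lox probe set did not pass (log2 change 0.14). Mfap2, a microfibril protein, rose 1.66-fold, and missed the threshold against the fed 2 h and 4 h arrays (adjusted p = 0.215). Elastin itself (Eln) gave 7423 and 10179 at CR 96 h and 5911, 5081, 8544 and 8119 in fed lungs and did not pass (adjusted p = 0.262). Serpinh1, the chaperone that folds collagen, from the heat shock list, gave 2654 and 2335 at CR 96 h and 6445, 6178, 5079 and 5628 in fed lungs, 2.33-fold lower (1.80 to 3.02). In that list of 18 it was the only fall against all 4, and Cirbp, an RNA-binding protein induced by cold, the only rise (1.90-fold, 1.53 to 2.37). Hspa4 and Hsph1 of that list also fell against number 2 (log2 change -1.24 and -1.13, adjusted p = 0.000454 and 0.00111).

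Of 23 matrix proteases and inhibitors 3 rose and 0 fell: the protease inhibitors Serpina3n (1.71-fold) and Timp3 (1.62-fold), and Plat, tissue plasminogen activator (2.06-fold). Timp3 missed the threshold against number 2 (adjusted p = 0.0922), and Serpina3n, Timp3 and Plat missed it against the fed 2 h and 4 h arrays (adjusted p = 0.689, 0.187 and 0.141). Without CR 1b 0 of them rose. Neutrophil elastase (Elane) overlapped between the groups, with 313 and 308 at CR 96 h and 301, 262, 323 and 312 in fed lungs. Among 25 genes of alveolus formation, retinoid and Notch signalling, Tgfb3, a growth factor, was 1.76-fold lower and Rbp4, the retinol carrier, 1.52-fold lower, and 0 rose. Rbp4 missed the threshold against number 2 and against the fed 2 h and 4 h arrays (adjusted p = 0.14 and 0.798).

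Of 28 endothelial genes 3 rose and 1 fell, where 3.92% of all probe sets tested rose and 2.57% fell. Lyve1, the hyaluronan receptor of lymphatic vessels and some macrophages, gave 3340.4 and 4505 at CR 96 h, against 888, 862, 764 and 1166 in fed lungs, 4.27-fold higher (3.25 to 5.60, adjusted p = 7.90e-07). Fed lungs of 2, 4 and 12 h had means of 1744, 1637 and 2149.9, and against the 2 h and 4 h arrays the log2 change was 1.20 (adjusted p = 0.000623). Klf2, which flow induces, and Edn1, a vasoconstrictor peptide, rose 3.03-fold and 1.73-fold. Edn1 missed the threshold against the fed 2 h and 4 h arrays (adjusted p = 0.377), and its further probe set did not pass (log2 change -0.03). Emcn, a surface mucin of capillaries and veins, gave 1628 and 1031 at CR 96 h and 2943, 2419.8, 2359 and 2593 in fed lungs, 1.98-fold lower; its dimmer probe set did not pass (log2 change -0.62, adjusted p = 0.0854).

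Alveolar cell genes mostly did not pass. Of 12 type II and surfactant genes 2 rose and 0 fell, Slc34a2, the phosphate carrier of type II cells, 1.65-fold with 17659.7 and 21175 at CR 96 h and 10471, 11983, 10416 and 14459 in fed lungs, and Chia1, a chitinase, 1.75-fold. Slc34a2 missed the threshold against the fed 2 h and 4 h arrays (adjusted p = 0.525). None of 7 type I genes or of 7 club and ciliated cell genes passed against all 4. Their smallest adjusted p-values were 0.0791 (Igfbp2) and 0.0981 (Scgb1a1). Igfbp2 fell against number 2 (log2 change -0.54, adjusted p = 0.0143).

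For genes of energy and protein supply the values depended on which fed arrays were used. Of 55 oxidative phosphorylation genes 6 fell and 0 rose, with a median log2 change of -0.56 against all 4 fed arrays, -0.92 against number 1 and -0.10 against number 2. Atp5j, an ATP synthase subunit, gave 2497 and 2217 at CR 96 h, against 5163, 5382, 3229 and 3560.4 in fed lungs, 1.80-fold lower (adjusted p = 0.0132). It and Ndufa3, a complex I subunit, were the 2 that also fell against number 2. A further Ndufa3 probe set did not pass (log2 change -0.78). Against the fed 2 h and 4 h arrays 0 of 55 passed. Of 21 ribosomal protein genes 2 fell, Rps24 and Rpl13a, and 0 passed against number 2, where the median log2 change was -0.02. Neither passed against the fed 2 h and 4 h arrays (adjusted p = 0.419 and 0.475). The summed ribosomal signal was 243317 and 291179 at CR 96 h, 540118 to 582516 for fed number 1 and 283421 to 301169 for number 2.

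Of 32 proteasome genes 0 passed, and the median was -0.30 against all 4 fed arrays and 0.12 against number 2. Among 31 glutathione and antioxidant genes Gsta3, a glutathione transferase, rose 1.62-fold and Prdx2, a peroxiredoxin of red cells, was 1.92-fold lower. These 2 calls lay near the shares over all probe sets (3.92% higher and 2.57% lower). Prdx2 missed the threshold against number 2 and against the fed 2 h and 4 h arrays (adjusted p = 0.126 and 0.278), and a further probe set did not pass (log2 change -0.67). None of 9 erythroid genes passed against all 4. Alas2 and Hbb-b2 rose against number 2 (log2 change 1.07 and 0.585, adjusted p = 0.000119 and 0.0431). The summed signal of the erythroid list was 57244 and 62460 at CR 96 h, 100876 to 105240 for number 1 and 47602 to 51700 for number 2. The mesothelial list (4 genes), the skin and oesophagus list (4 genes) and the 1 plasma protein gene had no gene that passed; their smallest adjusted p-values were 0.104 (Krt18), 0.3 (Lor) and 0.111 (Hp).

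Of 102 list genes called against all 4 fed arrays, 21 had a further probe set that was tested. In 9 of them a further probe set was called the same way, in 14 a further probe set was not called, and in 0 was one called the other way.

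Several of the largest changes lay outside these lists. Sorbs3, an adaptor at cell adhesions, gave 1156 and 1818 at CR 96 h and 107, 41.6, 139 and 538 in fed lungs, 9.11-fold higher with a wide interval (3.47 to 23.9). Socs3, a brake on cytokine signalling, gave 793 and 878 at CR 96 h and 61.1, 57.8, 397 and 268 in fed lungs, where number 1 was under the floor and number 2 well above it. It was at least 5.15-fold higher (adjusted p = 0.0128), with a log2 change of 1.35 against number 2 (adjusted p = 0.0432), but a further Socs3 probe set did not pass (log2 change 0.51). Inpp5d, a phosphatase of blood cells, was 4.89-fold higher and Tcf25, a nuclear protein, at least 6.35-fold higher, and neither was borne out by a further probe set (log2 change 0.06 and 0.10, neither called). Sorbs3, Socs3, Inpp5d and Tcf25 missed the threshold against the fed 2 h and 4 h arrays (adjusted p = 0.265, 0.341, 0.61 and 0.177). The immunoglobulin heavy chain gene Ighm rose 5.76-fold on 1 probe set, with 1015 and 537 at CR 96 h and 156, 98.4, 214 and 81.7 in fed lungs, while 3 others gave log2 changes of 0.23, -0.14 and -1.14, the last a fall.

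Plac8 gave 1267 and 785 at CR 96 h, against 10066, 10951, 2033 and 2745 in fed lungs, so the log2 change was -2.32 against all 4 and -1.24 against number 2 (adjusted p = 0.00587 and 0.000682). Gimap4, a GTPase of lymphocytes, was 2.57-fold lower and Gja4, the connexin of arterial endothelium, 2.53-fold lower. Tff2, a secreted trefoil peptide of mucosa, was 2.62-fold lower, and Sox11, a transcription factor of developing tissue, 2.64-fold lower. Sema3b, a guidance cue, and Gm34703, which is only predicted, were under the floor on both CR arrays, at least 4.23-fold and 3.32-fold lower. Nnat, a membrane proteolipid, and Csf3, a growth factor for neutrophils, were under it on 1 of 2, at least 3.86-fold and 3.75-fold lower. Of these falls, those of Tff2, Sox11, Sema3b, Gm34703, Nnat and Csf3 missed the threshold against the fed 2 h and 4 h arrays (adjusted p = 0.458, 0.263, 0.0516, 0.173, 0.05001 and 0.188).

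The largest changes that missed the threshold against fed number 2 are given here for comparison. The rises were Lpin1, a phosphatase of fat synthesis, Mknk1, Qsox1, Gtpbp1 and Rnps1, and the falls Mea1, Entpd5, Tbxa2r, Atp5e and Lst1. Among them Tbxa2r and Lst1 passed against the fed 2 h and 4 h arrays. The brighter Qsox1 probe set was also called higher (log2 change 1.37, adjusted p = 0.00102), while a further Gtpbp1 probe set did not pass (-0.21). Lpin1 gave 1257 and 2014 at CR 96 h, against 469, 59.4, 653 and 746 in fed lungs, of which 1b alone was under the floor (adjusted p = 0.0313 against all 4 and 0.134 against number 2). Mea1 gave 83.6 and 82.7 at CR 96 h and 644, 1173, 108 and 255 in fed lungs, with number 1 far above number 2, and its brighter probe set did not pass (log2 change -0.44).

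**Figure D4:**
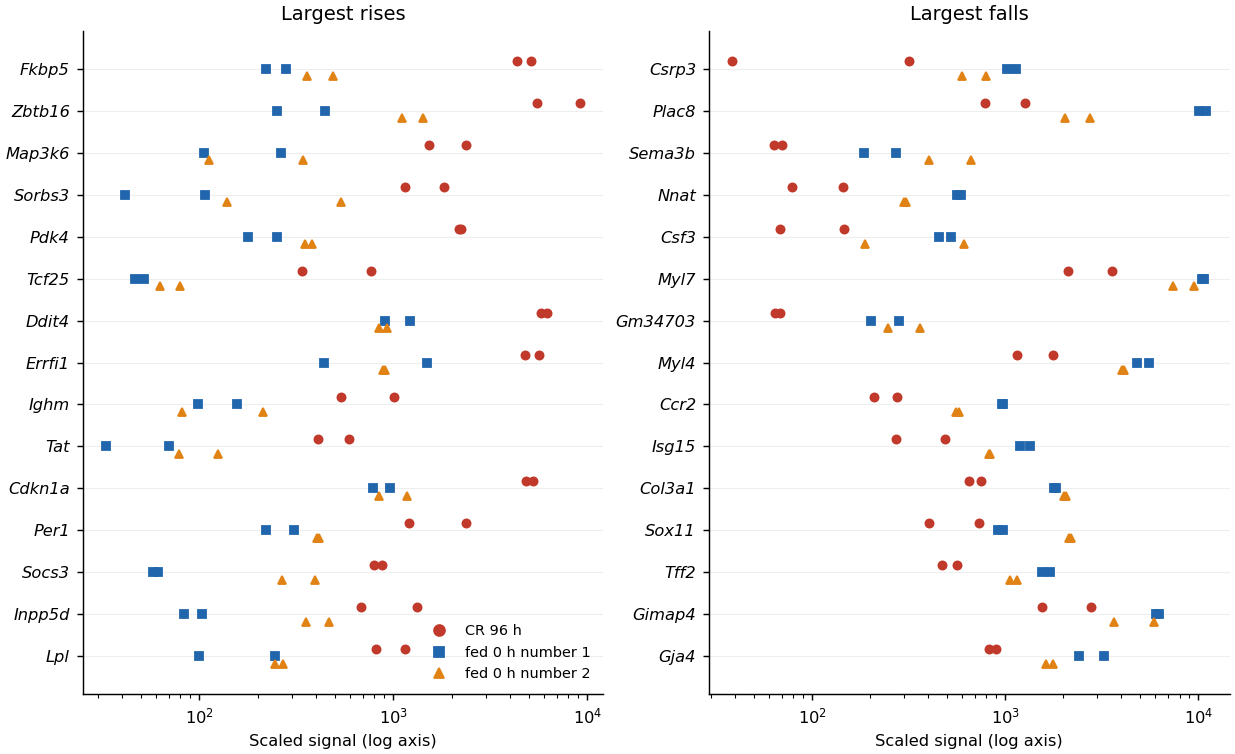
Scaled signal (log axis) in each array for the 15 largest rises (left) and the 15 largest falls (right) that were called against all 4 fed arrays and against fed number 2: CR 96 h red circles, fed 0 h number 1 blue squares, fed 0 h number 2 orange triangles. Genes were shown only if both CR arrays also lay beyond all 4 fed arrays.

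The hours of restriction before the fourth day show where 96 h stands. Against CR 72 h limma called 0 probe sets higher (0%) and 1 lower (0.0134%). An unadjusted p under 0.05 was seen for 165 of the 7440 tested, fewer than the share of 0.05 that no difference at all would give. The lower one was Cyp1a1, an enzyme induced by aryl hydrocarbons, with 539 ± 74.6 at CR 96 h and 4774 ± 1831 at CR 72 h (SD, n = 2 each), a log2 difference of -3.10 (adjusted p = 0.00062). Its fed 0 h arrays gave 1480.2, 1435, 625 and 866. Of the 292 rises, 182 had their highest mean of all 11 groups at CR 96 h, and of the 191 falls 109 had their lowest there. Over all probe sets this was so for 11.1% and 8.2%. The rises and falls were picked for their CR 96 h values, which favours such counts, so the counts do not show when a change peaks.

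Against CR 24 h, the same clock hour on the first day, 26 probe sets were higher (0.349%) and 9 lower (0.121%). Fos averaged 3149.8 ± 102 at CR 96 h and 888 ± 71.6 at CR 24 h (SD, n = 2 each), a log2 difference of 1.83 (adjusted p = 0.0417). Col3a1 averaged 697 ± 69.4 at CR 96 h and 1534 ± 91.8 at CR 24 h, a difference of -1.14 (adjusted p = 0.00196), and Myl7 2849 ± 1022 and 5892 ± 636, a difference of -1.09 (adjusted p = 0.0417). Myl4, Emcn and Anxa8 were the other largest differences downward, and Vps51, Mrc1, Egr2 and Aifm1 those upward. The CR 24 h arrays were of the high signal range and CR 96 h of the low, so the range and the day cannot be told apart here. Without CR 1b 3 probe sets were called, without CR 1a 11, and without CR 24 h 1a or 1b 10 or 15.

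At 12, 24, 48, 72 and 96 h of restriction the group means of Ddit4 were 2441, 2264, 3054, 4571 and 5991, each step after 24 h upward. Those of Pdk4 were 804, 1528, 2219.9, 2204 and 2207, so that the last 3 lay close together. Fkbp5 was not steady over the hours, with means of 4279.9, 1795, 2528, 3990.00 and 4740.3, while its fed means were 1529.9 at 12 h and 336 at 0 h. The CR arrays of 12, 24 and 48 h were of the high signal range and those of 72 and 96 h of the low. From 48 to 72 h, range and hour therefore cannot be told apart.

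**Figure D5:**
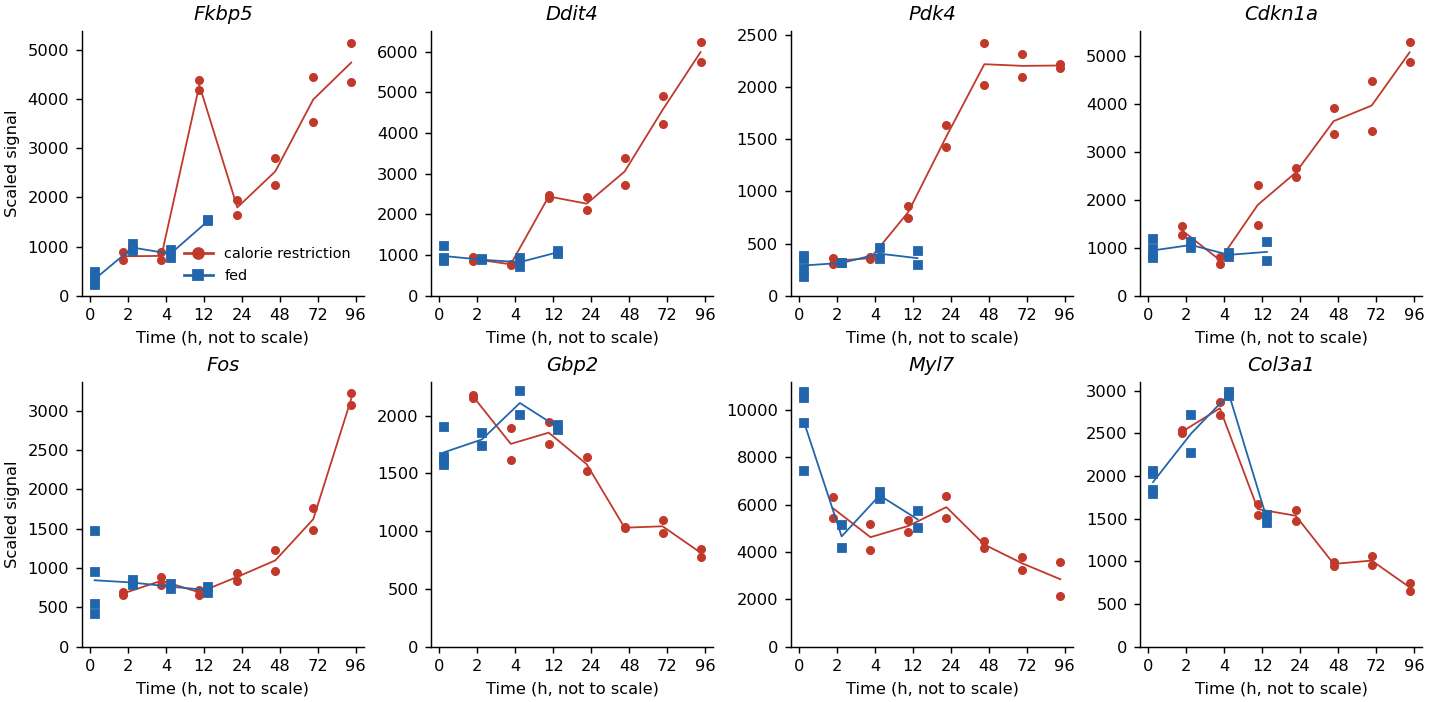
Scaled signal of 8 genes by hour (axis not to scale), calorie restriction in red and fed in blue; points are arrays and lines join group means. Ddit4, Cdkn1a and Fos have their highest means at 96 h and Gbp2, Myl7 and Col3a1 their lowest, while Fkbp5 has a high mean at 12 h of restriction too and the fed 0 h arrays of Myl7 lie above all others.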

How the data were processed

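Total RNA of mouse lung was hybridised to MG-U74Av2 arrays, and the authors deposited 1 linear intensity per probe set. Per the deposited values themselves, the authors had scaled each array: the mean without the lowest and highest 2% was 800.4 to 800.494. The labels name no software for these arrays. Group, time, number and letter came from the array titles. Every array was multiplied so that its median met the median over 24 arrays, raised to a floor at the 25th percentile (80.4) and put on the log2 scale; printed signals are before the floor. Probe sets reaching the array median on at least 2 arrays were kept. With at least 50% of a group's arrays at the floor, a fold is a lower bound.

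A linear model with 1 mean per group was fitted across the 24 arrays (R 4.3.3, limma 3.58.1, moderated variance with a trend on intensity, 13 residual degrees of freedom), and tests were two-sided, with Benjamini-Hochberg adjustment over 7440 probe sets; folds are ratios of geometric means. The number of arrays limits the precision. The script was tested on simulated data with independent noise. Those data held no link between a and b and no split between the fed numbers, so the test does not bear on either. Gene names came from GEO's platform annotation of August 2016 (10833 of 12422 probe sets with 1 symbol, 396 with several, 1193 with none); names were updated through the reference gene table (GRCm38.p6) for 10817.

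Named outside the lists are the 15 largest rises and falls called against all 4 fed arrays and against number 2 with no overlap, the 5 largest each way not called against number 2, and the 5 largest each way against CR 72 h and CR 24 h. A gene with several probe sets is given in a list by its brightest. The comparison and the 38 lists were chosen with earlier results of these data known. Letters a and b did not pair arrays across groups: deviations of same-letter arrays correlated by 0.01 in the median (-0.19 to 0.118, 2 of 110 pairs over 0.1). Deviations of 2 arrays from their mean mirror each other, so pairs of letter b repeat the values of letter a. For CR 96 h with fed number 1 both letters gave 0.0484. Alternatives were the scaling, the floor, the filter, the trend, array weights, the control arrays, blocks, and each array left out.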

Additional observations from a re-analysis of the deposited data

Results flagged for a closer look

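In 4 of 126 named genes 1 fed 0 h array stood apart from the other 3; chance flags about 1 in 20. Cited2 had 1933 on fed 2b, Dusp1 4573 and Gimap4 3666 on fed 2a, and the dimmer Lpl probe set 100.2 on fed 1a.

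CR 96 h differed from CR 24 h in these genes among those called in that direct test, as log2 differences: 2.36 for Vps51, a subunit of a vesicle tethering complex; 1.83 for Fos; 1.73 for Mrc1, the mannose receptor of macrophages; 1.64 for Egr2, an immediate early transcription factor; and 1.42 for Aifm1, a mitochondrial flavoprotein. Those downward were -1.28 for Myl4, -1.14 for Col3a1, -1.09 for Myl7, -1.06 for Emcn and -1.04 for Anxa8, an annexin. Signal range went with these 2 groups, and its part was not tested. CR 96 h differed from CR 72 h by -3.10 in Cyp1a1.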

How the results depend on the processing

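Against fed 0 h, the 292 rises and 191 falls stayed within 1.5 times under quantile scaling, deposited scaling, no floor, a floor at the 40th percentile, no filter, a filter on 6 arrays, no trend and fed number 2 alone (249 to 410 rises, 129 to 224 falls). With the letter as a replicate block they were 250 and 154, and the block moved no count by over 1.5 times. Array weights gave 166 rises and 73 falls, 82 calls against CR 24 h and 2 against CR 72 h. No floor and no filter each gave 2 calls against CR 72 h, and no trend gave 9 against CR 24 h. With a and b as a random block 41 rose and 6 fell, and averaged, with 1 residual degree of freedom, 6 rose and 0 fell; both gave 0 calls against CR 72 h and CR 24 h. The 6 arrays alone gave 19 rises and 1 fall. Fed number 1 alone gave 1546 and 1350, the fed 2 h and 4 h arrays 142 and 84, and the fed 2, 4 and 12 h arrays 144 and 77. Signal range as a block is by construction the comparison with number 2. With 1 array left out, rises ran from 68 (without CR 1b) to 579 (without fed 2b), falls from 15 (without CR 1b) to 473 (without fed 2a), calls against CR 24 h from 3 (without CR 1b) to 15 (without CR 24 h 1b), and against CR 72 h from 0 (without CR 72 h 1a) to 2. A lone array is then assumed to vary like the other groups. Of 126 named genes, 91 kept their call against number 2 and 27 under the random block; 2 turned direction, Cnn1 against the fed 2 h and 4 h arrays (log2 change 0.013) and Hdc against the fed 2, 4 and 12 h arrays (0.237), neither called there. The cause was not tested. Probe sets near the floor give bounds only.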

Other observations

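Some called genes lie outside the lists; they were chosen after their values were seen. Pnpla2, the lipase that starts the breakdown of stored fat, gave 10156 and 12694 at CR 96 h, against 3829, 3949, 4125 and 4464 in fed 0 h lungs, 2.78-fold higher (limma adjusted p = 6.33e-06). Lpin2, a phosphatidate phosphatase, gave 2518 and 3777 at CR 96 h and 728, 726, 1241 and 1562 in fed lungs, 3.06-fold higher. Xdh, the enzyme that makes uric acid, gave 3915 and 6312 at CR 96 h and 708, 816, 1204 and 2058 in fed lungs, 4.54-fold higher. No fed array reached a CR array in any of the 3, and all 3 also rose against fed number 2.

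F3, tissue factor, which starts clotting, gave 2582 and 3268 at CR 96 h, against 574, 557, 1404 and 1009 in fed lungs, 3.54-fold higher (adjusted p = 0.000575). The thrombin receptor F2r rose on 2 of its 3 probe sets, by log2 changes of 1.85 and 0.71, of which neither passed against the fed 2 h and 4 h arrays (adjusted p = 0.221 and 0.465), nor the smaller change against number 2. Herpud1, a gene of the endoplasmic reticulum stress response, gave 5364 and 5432 at CR 96 h and 2577, 2236, 1817 and 2074 in fed lungs, 2.50-fold higher.

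The tubulin gene Tuba1a gave 14409 and 9296 at CR 96 h and 33011, 28692, 21642 and 24671 in fed lungs on its brightest probe set, 2.30-fold lower, and the tubulin gene Tuba1c was 1.66-fold lower; neither passed against the fed 2 h and 4 h arrays (adjusted p = 0.121 and 0.234). The tubulin probe sets may share targets within the family. The immunoglobulin heavy chain Igha gave 1875 and 1559 at CR 96 h and 606, 677, 539 and 741 in fed lungs, 2.69-fold higher, while 4 of 14 B cell genes fell.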
